A study of Mus musculus with 12 samples.

Results

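GABA-A receptors are pentameric chloride channels that open when they bind gamma-aminobutyric acid (GABA) and carry most of the fast inhibition in the adult hippocampus. A typical receptor combines alpha, beta and gamma subunits: the transmitter binds between alpha and beta, and benzodiazepines bind between alpha and gamma. Subunit choice sets where a receptor sits and how it responds to drugs, and ethanol and early stress have long been studied for effects on this receptor family. Methylation of cytosine, which in adult mammals sits mainly at CpG dinucleotides, was measured here in the DNA of 7 subunit genes: Gabra2, Gabra4, Gabra5 and Gabra6 (alpha subunits), Gabrb1 and Gabrb2 (beta subunits) and Gabrg3 (a gamma subunit).

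The mice were adult male C57BL/6J, sampled at postnatal day 70. Control mice had no intervention. Ethanol mice were born to dams that drank a 10% ethanol solution by choice. By the methods of the study it was offered before mating and from gestation until postnatal day 10. Stress mice were kept apart from the dam for 3 h per day on postnatal days 2 to 14. Ethanol + stress mice had both exposures, which overlapped in time. Hippocampal DNA was enriched with an antibody against 5-methylcytosine and sequenced (MeDIP-Seq), with 2 enriched libraries from separate mice and 1 input library in each group, and each library was compared with its own group's input, so an effect of group and an effect of that input cannot be told apart. A peak is a stretch with more fragments than the input and is not a methylation level, and whole hippocampus mixes cell types, whose shares were not measured. The 8 libraries held 22805 to 51747 peaks, with 27655 and 24017 in Control, 45961 and 22805 in Ethanol, 40187 and 51747 in Stress, and 43139 and 36173 in Ethanol + stress.

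The members were taken as every row of the 8 peak lists that named any of the 7 genes as nearest gene. They came to 103 of 291684 peaks, in 28 of 91177 regions, a region being peaks of any libraries that overlap by at least 1 bp. Of the 7 genes, 6 had a peak and Gabra5 had none, among 14146 genes named in the lists. Gabrg3 held 80 peaks in 19 regions, Gabra2 held 10 in 3, Gabrb2 held 7 in 2, Gabrb1 held 3 in 2, Gabra6 held 2 in 1 and Gabra4 held 1 in 1. Positions below are in mm10 (GRCm38), counted from 1.

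The sequences under 5 regions are shown because they carry the results that follow: the strongest region, the regions named for the 7 genes that were found in every library, and the regions of Gabrg3 that were gained or lost. Each is the 300 bases around the median summit on the plus strand of the reference, with every CpG in capitals.
Gabrb1, last coding exon, chr5:72136485-72136784: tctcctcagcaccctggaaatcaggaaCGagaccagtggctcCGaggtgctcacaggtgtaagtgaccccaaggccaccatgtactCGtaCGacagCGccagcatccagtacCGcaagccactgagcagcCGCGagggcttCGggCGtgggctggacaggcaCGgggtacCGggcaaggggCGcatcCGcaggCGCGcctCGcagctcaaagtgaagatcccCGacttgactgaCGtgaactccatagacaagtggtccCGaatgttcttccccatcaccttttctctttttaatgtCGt
Gabra2, intron 3, found in all 8 libraries, chr5:71059665-71059964: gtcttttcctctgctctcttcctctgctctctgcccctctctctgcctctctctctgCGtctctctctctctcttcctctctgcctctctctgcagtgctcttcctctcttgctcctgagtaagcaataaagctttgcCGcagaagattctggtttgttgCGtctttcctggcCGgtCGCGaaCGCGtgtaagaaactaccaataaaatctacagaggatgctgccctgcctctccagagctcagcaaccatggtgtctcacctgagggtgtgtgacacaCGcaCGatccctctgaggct
Gabrg3, intron 3, found in all 8 libraries, chr7:57115241-57115540: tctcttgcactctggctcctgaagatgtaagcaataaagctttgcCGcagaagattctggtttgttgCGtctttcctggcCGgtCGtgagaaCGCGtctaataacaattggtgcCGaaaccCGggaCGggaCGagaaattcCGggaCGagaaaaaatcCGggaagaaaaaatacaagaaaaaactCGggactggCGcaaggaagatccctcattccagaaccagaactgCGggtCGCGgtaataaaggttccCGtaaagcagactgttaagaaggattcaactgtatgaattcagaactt
Gabrg3, intron 5, gained in Stress, chr7:56926363-56926662: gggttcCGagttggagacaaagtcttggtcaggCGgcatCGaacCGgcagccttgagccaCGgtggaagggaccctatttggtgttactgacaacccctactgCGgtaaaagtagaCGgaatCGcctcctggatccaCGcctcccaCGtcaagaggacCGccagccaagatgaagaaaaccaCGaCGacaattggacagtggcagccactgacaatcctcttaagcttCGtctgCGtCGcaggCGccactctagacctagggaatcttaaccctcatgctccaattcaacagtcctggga
Gabrg3, intron 3, lost in Stress, chr7:57071916-57072215: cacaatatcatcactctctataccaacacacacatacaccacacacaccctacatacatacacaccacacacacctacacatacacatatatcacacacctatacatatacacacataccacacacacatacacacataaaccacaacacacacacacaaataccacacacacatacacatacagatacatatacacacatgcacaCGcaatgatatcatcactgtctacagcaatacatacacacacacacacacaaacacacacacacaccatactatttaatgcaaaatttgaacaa
These windows hold 21, 10, 19, 17 and 1 CpG in that order. Over all 91175 regions with a full window the median was 4 and the middle 50% lay between 2 and 9. The lost region of Gabrg3 is thus CpG-poor, and the other 4 windows lie above the middle 50%.

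The alpha subunit genes differed widely in how many peaks they held. Gabra2 encodes the alpha 2 subunit, known for synapses onto the axon initial segment of hippocampal pyramidal cells. It held a peak in every library at chr5:71059481-71060202, in intron 3 of the principal GENCODE transcript (10 exons), 36.0 kb past the start site. Fold enrichment over input there was 10.7 and 11.4 in Control, 20.7 and 12.3 in Ethanol, 17.7 and 10.4 in Stress, and 16.5 and 11.2 in Ethanol + stress. Both Ethanol libraries were above both Control libraries, and the Stress and Ethanol + stress libraries overlapped the Control range. Among the 8901 regions with a peak in all 8 libraries, 15.7% had both Ethanol libraries above both Control libraries, so this order was common. The window of this Gabra2 region was 66% masked as repeat in the reference assembly. On either strand it shared at least 50 of its 285 16-base words with 146 other peak regions of the genome. How reads with several possible positions were placed is not given in the sources used here. The other Gabra2 peaks were single calls upstream of the gene: at -45.0 kb from the start site in Ethanol + stress library 1 with a fold of 6.08, and at -79.3 kb in Ethanol library 2 with a fold of 5.54. Neither of these windows holds a CpG.

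Gabra4 encodes the alpha 4 subunit, which with delta forms extrasynaptic receptors in the dentate gyrus. It had 1 peak, in Ethanol library 2, at chr5:71650931-71651410 in intron 2, 7.17 kb past the start site, with a fold of 6.97. Gabra6 encodes the alpha 6 subunit, known mainly from cerebellar granule cells. Its 2 peaks, in Ethanol library 1 (fold 5.62) and Stress library 2 (fold 7.38), overlapped at chr11:42275224-42275825. That region lies 45.6 kb past the start site and beyond the end of the gene, and the files class it as intergenic.

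Gabra5 encodes the alpha 5 subunit, which carries tonic inhibition in hippocampal pyramidal cells. No library had a peak named for it, and none had a summit between its GENCODE start and end (chr7:57407672-57510059, 102 kb). The nearest summit to its start site was 137 kb away, inside the neighbouring Gabrg3. Of 2489 protein-coding genes of at least 100 kb, 10.6% likewise held no region, and a gene with no peak may still carry methylation below the calling limit.

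Among the 7 genes the promoter peaks were all in a beta subunit gene, Gabrb2, and the highest fold of a named peak was the 20.7 of Gabra2. A stronger region lies inside Gabrb1 but is listed under another gene. Gabrb2 encodes the beta 2 subunit, part of the most common receptor type of the adult brain. Its promoter region (a promoter being within 2000 bp of the start site) had a peak in 5 libraries, with folds of 7.30 in Control library 2, 7.71 in Ethanol library 1, 10.3 in Stress library 2, and 12.0 and 7.06 in Ethanol + stress. Control library 1, Ethanol library 2 and Stress library 1 had no call there, so a peak in both libraries of a group was found in Ethanol + stress, and the call in Control library 2 keeps the region from counting as gained. The second Gabrb2 region, chr11:42764158-42764873, lies 345 kb past the start site, outside the gene, with folds of 8.13 in Ethanol library 1 and 8.16 in Ethanol + stress library 2.

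Gabrb1 encodes the beta 1 subunit. The 3 peaks named for it lay in intron 3 of the principal transcript (9 exons). Stress library 1 had a peak 35.0 kb past the start site used in the files (fold 6.54), and Control library 1 and Ethanol + stress library 2 shared a region 124 kb past it (folds 9.40 and 9.81). Both windows hold 1 CpG.

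The GENCODE interval of Gabrb1, chr5:71658113-72149037, held 4 more regions that the lists name after the neighbouring gene Commd8 and class as intergenic. Their summits lie 31.5 to 98.2 kb from the start site of Commd8 and 412 to 479 kb from the GENCODE start of Gabrb1. That start differs from the start site used in the files for Gabrb1. Peaks were named by the nearest gene. The 4 regions were found after the lists had been examined and are no part of the 103 peaks. The strongest, chr5:72136127-72137106, covers all 342 coding bases of the last exon, exon 9, from 72136465 to 72136806, and runs on into intron 8 and past the stop codon. It had a peak in all 8 libraries. Fold enrichment was 14.8 and 23.6 in Control, 30.3 and 13.8 in Ethanol, 18.3 and 45.8 in Stress, and 30.1 and 25.4 in Ethanol + stress. These values lay between the 92.9th and the 99.5th percentile of their own libraries, and in 7 of the 8 libraries the fold was above that of every peak named for the 7 genes, the exception being Ethanol library 2. The Ethanol and Stress libraries overlapped Control, while both Ethanol + stress libraries were above both Control libraries, as in 33% of regions found in all 8 libraries.

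The other 3 regions inside Gabrb1 lay in intron 5. A region at chr5:72075442-72077137 had peaks in all 8 libraries, with the highest fold of each library between 5.23 (Control library 2) and 11.6 (Stress library 2). A region at chr5:72069681-72070269 was called in Control library 1 and Ethanol + stress library 1, and 1 at chr5:72079922-72080426 in Stress library 1. The window of the first was 93.3% masked as repeat and that of the second 100%. On either strand they shared at least 50 of their 285 16-base words with 1339 and 1315 other peak regions. The windows of the third region and of the exon region did so with none. The limit on read placement given for Gabra2 applies to the first and second as well. None of the 4 regions was gained or lost in a treatment. Counting peaks by position inside the gene as the files place it gives Gabrb1 24 peaks in place of 3: 5 and 2 in Control, 2 and 3 in Ethanol, 4 and 2 in Stress, and 3 and 3 in Ethanol + stress. Over the series 33.9% of the 122973 peaks with a summit inside a protein-coding gene were classed as intergenic.

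**Figure D1:**
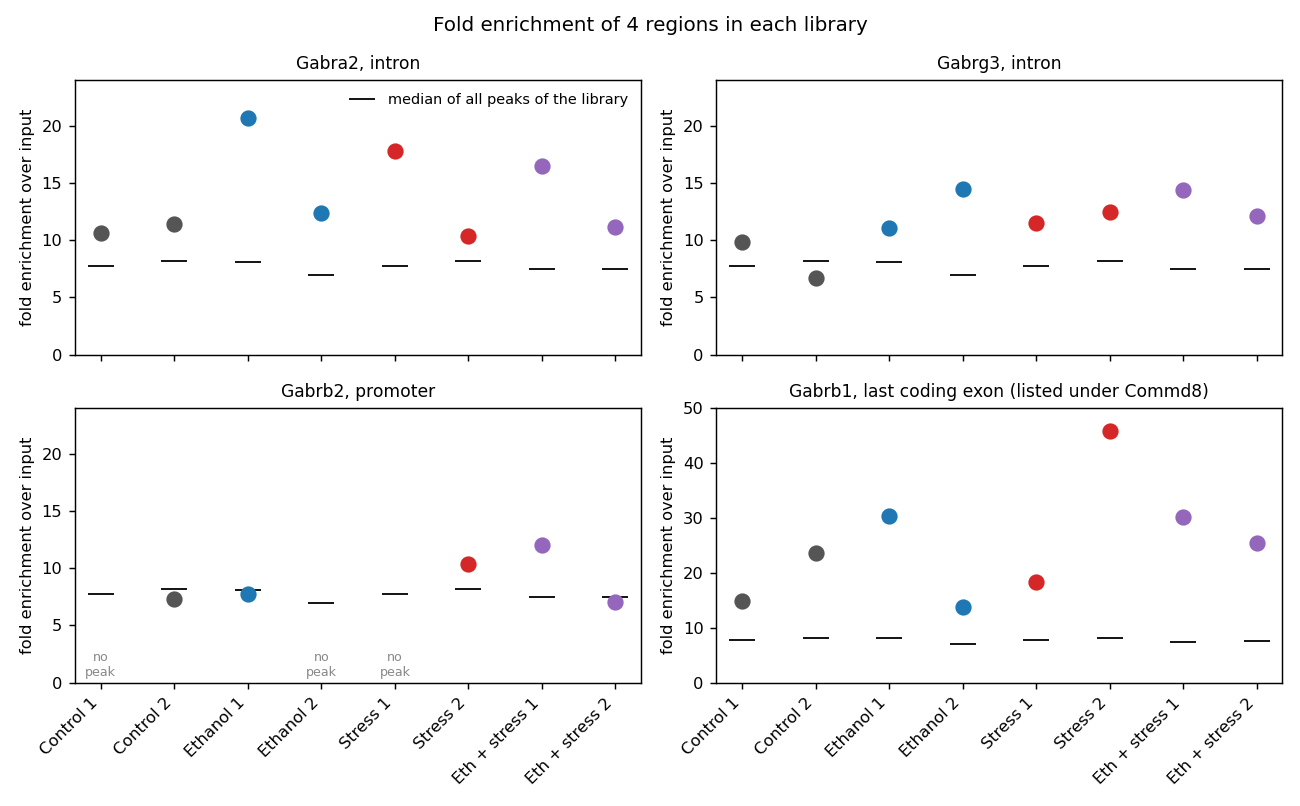
Fold enrichment over input (y axis) in each of the 8 libraries (x axis) for regions of Gabra2, Gabrg3, Gabrb2 and Gabrb1. Circles are the values of single libraries coloured by group and short black lines the median of all peaks in that library. The Gabrb1 exon region stands above that median in all 8 libraries, from 13.8 to 45.8, and the Gabrb2 promoter region has no call in 3 libraries.

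Gabrg3 encodes a gamma subunit and is the longest gene of the set, 671 kb on the minus strand of chromosome 7 next to Gabra5. With 80 peaks it ranked 655th of 14146 genes by number of peaks. Its 19 regions came to 2.83 per 100 kb, against a median of 2.62 over protein-coding genes of at least 100 kb (middle 50%, 0.969 to 5.60), so for its length its number of regions was ordinary. All 19 regions were intronic in the principal transcript: 2 in intron 2, 13 in intron 3 and 4 in intron 5. They began 13.3 kb past the start site and ended 488 kb past it, and the last 182 kb of the gene, 27.1% of its length, held none.

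The Gabrg3 regions fell into separate kinds by sequence. In 9 regions at least 96% of the window was masked as repeat (lower case in the reference assembly), and it held 14 to 22 CpG. In 9 others it was 0 to 88.7% repeat-masked and held 0 to 3 CpG, close to the 1.73 CpG per 300 bp of the whole gene. This second kind is thus less masked but not free of repeats. The remaining region was fully masked and held none. Each of the 9 CpG-rich windows shared at least 50 of its 285 16-base words, on either strand, with 45 to 1064 other peak regions of the genome, and none of the 9 less masked, CpG-poor windows did so with any. The CpG-rich windows of Gabrg3 thus share sequence with peak regions elsewhere in the genome, and how reads with several possible positions were placed is not given in the sources used here.

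The CpG-rich repeat regions had 4 and 5 peaks in Control, 9 and 3 in Ethanol, 4 and 8 in Stress, and 6 and 4 in Ethanol + stress. The highest counts, 9 and 8, came from Ethanol library 1 and Stress library 2, which held the most peaks of all libraries. The 9 less masked, CpG-poor regions had 6 and 3 peaks in Control, 4 and 4 in Ethanol, 3 and 3 in Stress, and 4 and 4 in Ethanol + stress. Their counts stayed between 3 and 6 while library totals ranged from 22805 to 51747. Whether the number of peaks in a library sets the count in the CpG-rich repeat regions was not tested.

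**Figure D2:**
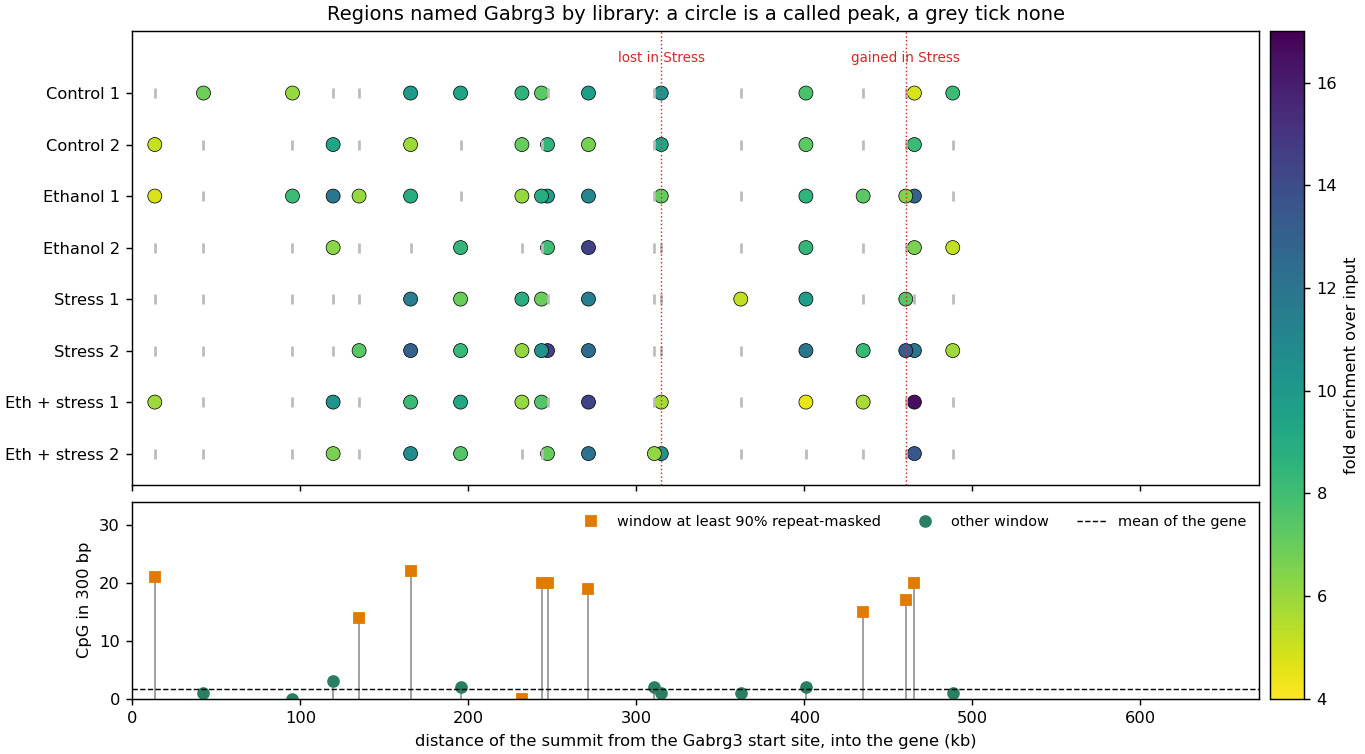
Upper panel: the 19 Gabrg3 regions by distance of the summit from the start site (x axis, kb) in the 8 libraries (rows), circles being called peaks coloured by fold enrichment over input and grey ticks no call. Lower panel: CpG in the 300 bp around each summit, orange for windows at least 90% repeat-masked, with the gene's mean of 1.73 as a dashed line. Only 1 column, 271 kb into the gene, is filled in all 8 libraries, and CpG counts split into 14 to 22 and 0 to 3.

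The Gabrg3 region in all 8 libraries, chr7:57114949-57115822, lies in intron 3, 271 kb past the start site, in a fully repeat-masked window. Its fold was 9.82 and 6.71 in Control, 11.1 and 14.5 in Ethanol, 11.5 and 12.4 in Stress, and 14.4 and 12.1 in Ethanol + stress. All 6 treated libraries were above both Control libraries. Of the regions found in all 8 libraries, 8.43% had that order, and both Stress libraries were above both Control libraries in 47.6%. A permutation test of 2 libraries against 2 cannot reach a p below 0.33, and Control has its own input, so no test is given.

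Further regions of Gabrg3 were called in 7 libraries. The CpG-rich region 465 kb past the start site lacked a call in Stress library 1, and its fold ran from 4.80 in Control library 1 to 16.5 in Ethanol + stress library 1. The CpG-poor region 401 kb past the start lacked a call in Ethanol + stress library 2 (folds 4.45 to 12.0), and the CpG-rich region 166 kb past it lacked one in Ethanol library 2 (folds 5.89 to 12.9). The 3 Gabrg3 regions called in 1 library had folds of 5.18 to 6.89 and held 1 or 2 CpG.

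Gained and lost regions ask whether ethanol exposure, separation or both changed where peaks were called. A region counted as gained where the treated group had a peak in each of its libraries and Control had none, and as lost where Control had a peak in each and the treated group had none. In Stress, 1 of the 28 regions was gained and 1 was lost, both in Gabrg3, where 8.93% of all regions were gained and 0.847% lost. The gained region, chr7:56926246-56926915 in intron 5, 460 kb past the start site, had folds of 7.44 and 13.3 in Stress and 6.45 in Ethanol library 1, and no call in Control, Ethanol library 2 or Ethanol + stress. The lost region, chr7:57071699-57072453 in intron 3, 315 kb past the start site, had folds of 10.2 and 9.37 in Control, 7.15 in Ethanol library 1, and 5.73 and 10.3 in Ethanol + stress, and no call in either Stress library. Neither region went the same way in Ethanol + stress, which shares the separation. The windows of the gained and the lost region were 100% and 85% repeat-masked and held 17 and 1 CpG. The gained window shared at least 50 16-base words with 104 other peak regions, and the lost window with none. The lost region was also called lost with merging within 500 bp, 50% coverage, the strongest 22805 peaks and the upper 50% by q-value. Leaving out a Control or Stress library could not undo this call, since each Control library had a peak there and no Stress library did. The gained region was not gained among the strongest 22805 peaks of each library, where Stress gained 0, nor among the upper 50% by q-value, where the 1 region gained was another Gabrg3 region, 401 kb past the start site.

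In Ethanol 0 of 28 regions were gained and 0 lost, against 2.82% and 0.93% of all regions. In Ethanol + stress 0 were gained and 0 lost, against 5.54% and 0.656%. The single gain and the single loss in Stress are each 3.57% of the 28 regions, and with so few regions a count of 0 or 1 cannot be told from the background.

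Divided by the peaks of the library, the 7 genes together held 4.70 and 4.58 peaks per 10000 in Control, 3.92 and 4.39 in Ethanol, 2.49 and 2.90 in Stress, and 3.25 and 3.32 in Ethanol + stress. As counted they held 13 and 11, 18 and 10, 10 and 15, and 14 and 12 in the same order. The shares were 4.64 ± 0.0853 in Control, 4.15 ± 0.331 in Ethanol, 2.69 ± 0.290 in Stress and 3.28 ± 0.0510 in Ethanol + stress (mean ± SD, n = 2 libraries). Control libraries had the highest shares and Stress libraries the lowest, with no overlap between these groups, as for 18% of all genes taken singly. The counts overlapped in every comparison. The totals of all peaks ran the other way, with 25836 per library in Control and 45967 in Stress on average.

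Most of these peaks were in Gabrg3, which had 11 and 9 peaks in Control, 14 and 7 in Ethanol, 8 and 12 in Stress, and 11 and 8 in Ethanol + stress. Per 10000 these were 3.98 and 3.75, 3.05 and 3.07, 1.99 and 2.32, and 2.55 and 2.21. The share was lower than in Control without overlap in each treatment, as for 9.8% of all genes in Ethanol, 18% in Stress and 17.8% in Ethanol + stress. Separated minus unseparated libraries gave -1.19 peaks per 10000, 2.27 against 3.46 (two-sided exact permutation test, 4 against 4 libraries, p = 0.0286, the smallest this design allows, Benjamini-Hochberg adjusted p = 0.837 over 14146 genes). Of all genes, 454 (3.21%) had an exact permutation p under 0.05 in this contrast. The Gabrg3 difference did not pass the adjusted test. No gene had an adjusted p below 0.837, so that test could not single out any gene. For ethanol-exposed against unexposed libraries the difference was -0.29 (exact permutation p = 0.6). For separation, the difference in Gabrg3 peaks as counted was -0.5 (exact permutation p = 0.886). When each library was cut to its strongest 22805 peaks, the difference was -0.99 per 10000 (exact permutation p = 0.0857).

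Of the other 5 genes with peaks, none had an exact permutation p under 0.05 in either contrast. Gabra4, Gabra6 and Gabrb1, with 1, 2 and 3 peaks, could not have reached such a p however their peaks fell. For these genes the test decides nothing. Gabra2, with 1 peak in each of these 4 libraries, had a lower share in Stress than in Control, 0.249 and 0.193 per 10000 against 0.362 and 0.416. This order follows from the totals alone. No member had a higher share than Control without overlap in any treatment, against 14.5% of all genes in Ethanol, 17.1% in Stress and 13.6% in Ethanol + stress. With so few genes, finding none cannot be told from these background shares.

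**Figure D3:**
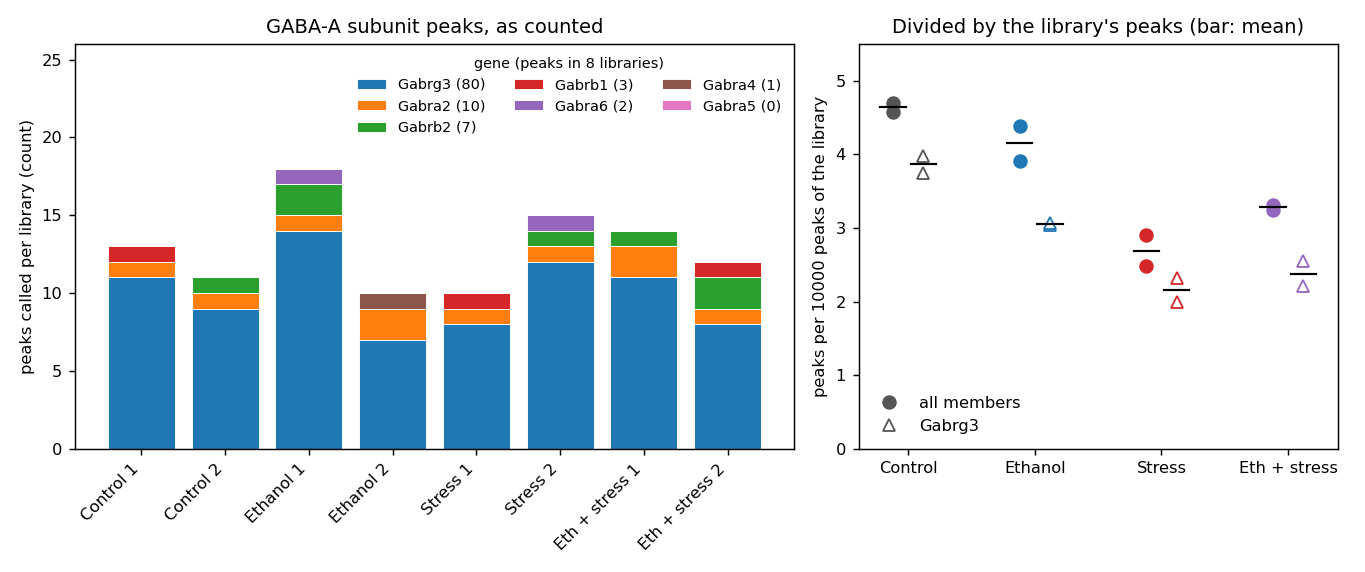
Left: peaks named for each of the 7 genes (y axis, count) stacked in each library (x axis). Right: peaks per 10000 peaks of the library (y axis) by group, filled circles for all 7 genes and open triangles for Gabrg3, each mark being 1 library and the bars group means of 2 libraries. Counts lie between 10 and 18 with the groups overlapping. The shares of both Stress libraries, 2.49 and 2.90, lie below both Control libraries, as for 18% of all genes taken singly.

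By class the 103 peaks were 92 gene-body (89.3%), 5 promoter (4.85%) and 6 intergenic (5.83%), where all rows of the lists were 25.7%, 2.80% and 71.5%. The 80 gene-body peaks of Gabrg3 make up most of the difference. Gabra2 had 8 gene-body peaks, Gabrb1 had 3 and Gabra4 had 1. The start sites themselves were not reached. RefSeq promoter windows of 300 bases around a start (build GRCm38.p6) matched all 7 genes, 10 windows in all, and no region overlapped any of them. These windows hold 25 CpG in Gabra2, 25 and 9 in Gabrb1, 13 in Gabrg3 and in Gabra5, 12 in Gabra4, 11, 9 and 9 in Gabrb2, and 2 in Gabra6, against a median of 7 over 32851 promoters.

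Regions of the family were found in 3.68 libraries on average, against 3.16 over all regions. Of 28, 7 (25%) were called in 1 library and 2 (7.14%) in all 8, where 38.7% and 9.76% of all regions were. The 7 regions called in 1 library held 0 to 2 CpG and had a median fold of 6.14, and the 7 called in 6 to 8 libraries had a median of 10 CpG and a fold of 9.99. Over all regions the medians were 4 CpG and a fold of 6.53 in 1 library, and 6 CpG and a fold of 9.40 in 6 to 8. Peak strength was close to that of other peaks: per library the median fold of the members was 7.30 to 10.3, against 6.97 to 8.22 for all peaks. The log2 ratio of these medians was 0.10 ± 0.15 (mean ± SD, n = 8 libraries), above 0 in 6 of 8.

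**Figure D4:**
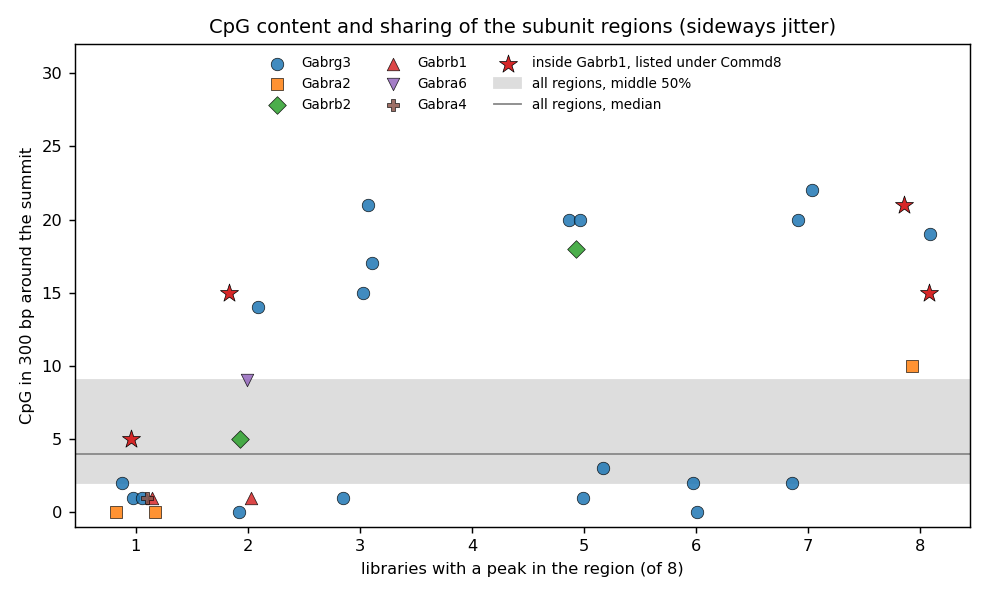
CpG in the 300 bp around the summit (y axis) against the number of libraries with a peak (x axis, of 8, jittered sideways) for the 28 regions named for the subunit genes, by gene, and the 4 regions inside Gabrb1 that are listed under Commd8 (stars). The grey band spans 2 to 9 CpG, the middle 50% of all regions. All regions called in 1 library among the 28 hold 0 to 2 CpG, and the Gabrb1 exon region, with 21, is called in all 8.

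The wider GABA pathway was taken as 33 other genes, of which 24 had peaks, 374 peaks in 123 regions. In these 123 regions 2 were gained in Ethanol, 9 in Stress and 10 in Ethanol + stress, and 0 were lost in each. The gains are 1.63%, 7.32% and 8.13% of the 123, near the 2.82%, 8.93% and 5.54% of all regions, so the genes named next are a description, and nothing particular to the pathway is read from them. Among the other GABA-A and rho subunits, Gabrp, the pi subunit gene, had 2 regions gained in Stress and 2 others in Ethanol + stress. Gabrr1 had 1 gained in Ethanol and 1 in Stress, and Gabrg1 had 1 gained in Ethanol + stress. Abat, the transaminase that breaks down GABA, had a region gained in Ethanol and Stress, chr16:8502964-8503657, and Slc32a1, the vesicular GABA transporter, had 2 gained in Ethanol + stress. Slc6a12, a GABA transporter gene, had 6 promoter peaks. Gad1, which makes GABA, had 2 peaks, and Gabbr1, a GABA-B receptor subunit, had none.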

How the data were processed

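Hippocampal DNA of 4 groups was profiled with 2 enriched libraries each. According to the methods of the study, reads were aligned to mm10 with HISAT2 (version 2.1.0 in the submitters' processing notes), and the authors used MACS to call peaks in every library, with the group's input as background, and named them by the nearest RefSeq gene. The columns of the files differ from those of the MACS release given there, so the release is not settled. Per the file headers and values, the deposited fold enrichment is a ratio over input, the deposited q-value column is −log10 of the q-value, and the deposited summit tag count is a score that was not used. Read depth is not known from these files, so no counting intervals were given.

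Peaks of the 8 libraries overlapping by at least 1 bp were merged to regions, and CpG were counted in 300 bp around the median summit in GRCm38.p6, with GENCODE M21 features. Shares are peaks per 10000 peaks of the library. Two-sided exact permutation tests over libraries were run for all 14146 named genes with Benjamini-Hochberg adjustment, and were tested on simulated data. All 7 genes are described, with every region gained, lost, in promoters or in all 8 libraries, and 33 further pathway genes. Genes, lists and rules were chosen with earlier results of these data known. Alternatives were raw counts, the strongest 22805 peaks of each library, the upper 50% by q-value, peaks by position, merging within 500 bp, 50% coverage, promoter windows of 1000 and 5000 bp, a replicate block and leaving out each library. Libraries are from separate mice, and litters were not given. Software was numpy 2.4.6, pandas 2.3.3 and matplotlib 3.10.9 under Python 3.11.15. Some pathway genes and 1 sequence are not reported here.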

Additional observations from a re-analysis of the deposited data

Results flagged for a closer look

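The share of peaks in the 7 subunit genes moved in opposite directions with ethanol, depending on separation. Without separation both Ethanol libraries (3.92 and 4.39 peaks per 10000) were below both Control libraries (4.70 and 4.58), a difference of -0.49. With separation both Ethanol + stress libraries (3.25 and 3.32) were above both Stress libraries (2.49 and 2.90), a difference of 0.59. Of all genes taken singly, 9.8% had both Ethanol libraries below both Control libraries. How many genes had the second order, or both orders, was not counted. As counted the directions were not opposite: the means went from 12.0 to 14.0 peaks per library without separation and from 12.5 to 13.0 with it. The difference between these was not tested, and with 2 libraries a group the order of 4 values decides each direction. The totals of all peaks moved the other way, from 25836 to 34383 per library on average without separation and from 45967 to 39656 with it, and their part in the result was not tested.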

How the results depend on the processing

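The lower share of peaks in treated groups depended on how peaks were counted. Ethanol, Stress and Ethanol + stress minus Control, at -0.49, -1.95 and -1.36 peaks per 10000, became -0.88, -1.53 and -1.10 with the strongest 22805 peaks per library, -0.065, -0.80 and -0.22 with the upper 50% by q-value, and -1.19, -2.62 and -2.13 with peaks assigned by position. As counted the differences were 2, 0.5 and 1 peaks in the opposite direction. Leaving out each library gave -0.72 to -0.26, -2.15 to -1.74 and -1.42 to -1.30.

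For Gabrg3, separated minus unseparated stayed between -1.33 and -1.02 when each library was left out, and was -0.99 (exact permutation p = 0.0857) with the strongest 22805 peaks and -0.54 (p = 0.314) with the upper 50%. With a replicate block, labels moving only between libraries of the same number, the exact permutation p was 0.0556, the smallest that 36 relabellings allow. The libraries share only a number, correlations of their deviations were -0.07 to 0.09, and the block changed no call. Directions of small differences turned in 18 of 156 alternatives, none past the threshold in any setting. With the upper 50%, Gabra2 for ethanol was -0.028, Gabrb1 for separation -0.043 and Gabrg3 for ethanol 0.17. By position, Gabra2 for ethanol was -0.014 and Gabrb1 for separation -0.37. Leaving out libraries gave -0.054 to 0.048 (Gabra6, separation), -0.048 to 0.054 (Gabra6, ethanol), -0.0075 to 0.13 (Gabrb1, separation), -0.071 to 0.11 (Gabrb2, separation) and -0.63 to 0.034 (Gabrg3, ethanol).

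With the strongest 22805 peaks, which leave 19 member regions, Stress gained 0 (3.70% of all regions), and Ethanol and Ethanol + stress lost 2 each (3.00% and 2.60%). With the upper 50%, which leaves 15, Ethanol gained 1 and lost 1 (3.01% and 0.941%), and Ethanol + stress gained 1 (5.79%). Without a replicate each, gains ran from 0 to 5 in Ethanol, 1 to 4 in Stress and 1 to 2 in Ethanol + stress, and losses from 0 to 3, 1 to 4 and 0 to 3, since a group of 1 library meets the rule more easily: the 5 of 26 gained without Ethanol replicate 2 stand beside 22.6% of all regions, and the 4 of 26 without Stress replicate 1 beside 29.8%. A promoter window of 1000 bp kept 2 of the 5 promoter peaks. The mean log2 ratio of peak strength stayed positive in all alternatives, at 0.071 to 0.14 when each library was left out. It was 0.11 ± 0.22 with −log10 q in place of fold. In the regions found in all 8 libraries, 2 of them in the family, it was 0.11 ± 0.33 (mean ± SD, n = 8 libraries). These spreads include 0, so no direction is read from the ratio.

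Groups hold 2 libraries, each with the group's own input, and depth is unknown, so how far a missing call lies under the calling limit was not measured. The cause of the changes above was not tested.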
